A study of Homo sapiens with 6 samples.

Results

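LNCaP-abl, a castration-resistant prostate cancer cell line, was compared with LNCaP, the castration-sensitive line it was derived from. These are 2 of the 6 libraries of the series, chosen by cell line name, and 12394 of the 19959 protein-coding genes in the tables held at least 50 counts over both libraries and were compared. LNCaP, grown in RPMI with 10% fetal bovine serum, is an epithelial line from a human prostate cancer metastasis that depends on androgen. LNCaP-abl, a single line selected by long culture of LNCaP without androgen, was grown in RPMI with 10% charcoal-stripped serum (serum depleted of steroids) and B27, a serum-free supplement of hormones, vitamins and antioxidants. The labels name no drug or genetic change in either line and state no treatment beyond the medium. Line and medium therefore differed together, and what belongs to the line and what to the medium cannot be told apart. Each line had 1 library, so no comparison has a replicate or a p-value. Every ratio is given with an exact 95% interval that covers counting error only.

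Androgens are steroid hormones that drive growth and secretion in prostate epithelium. They raise genes of prostate secretion such as KLK3, which encodes prostate-specific antigen, and lower others, among them UDP-glucuronosyltransferases that inactivate androgen. Castration-resistant tumours grow at castrate androgen levels.

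The promoters of KLK3 and KLK2 are shown because these paralogous kallikreins, which sit next to each other on chromosome 19, were among the genes that fell furthest. Both sequences are the 250 bases before the transcription start (RefSeq, GRCh38.p14, plus strand, 5′ to 3′), chr19:50854665-50854914 for KLK3 and chr19:50873189-50873438 for KLK2. Capitals mark the longest run with the letters GAACA that both promoters hold, which lies within the known proximal androgen response element of KLK3.
KLK3: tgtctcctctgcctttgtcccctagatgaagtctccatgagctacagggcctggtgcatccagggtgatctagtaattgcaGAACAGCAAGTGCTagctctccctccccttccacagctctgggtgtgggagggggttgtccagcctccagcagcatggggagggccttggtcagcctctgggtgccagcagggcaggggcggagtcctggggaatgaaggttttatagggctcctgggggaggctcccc
KLK2: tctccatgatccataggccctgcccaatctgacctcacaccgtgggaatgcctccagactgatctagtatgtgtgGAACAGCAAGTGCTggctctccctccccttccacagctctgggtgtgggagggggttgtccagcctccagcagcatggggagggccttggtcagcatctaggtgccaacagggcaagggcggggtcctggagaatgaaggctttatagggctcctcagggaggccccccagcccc
The shared run is 14 bases long and begins 169 bases before the start of KLK3 and 175 before that of KLK2. The aligned promoters were identical at 205 of 238 bases (86.1%). On either strand the 14 bases GAACAGCAAGTGCT were found in 2 of 19079 promoters (0.0105%), those of KLK2 and KLK3. The shorter motif AGAACA, found on either strand in 9.75% of promoters, occurred in 3 of the 22 androgen-induced genes that fell and had a promoter in the table, against 12.8% of the 13390 genes with at least 1 promoter there. The run of 14 bases was taken from the KLK3 and KLK2 promoters, so its 2 matches were fixed in advance. A match describes letters and not binding.

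Depth was 8661337 counts for LNCaP and 10892158 for LNCaP-abl. The share of protein-coding genes was 67.8% in the former and 77.4% in the latter, and the humanin-like MTRNR2L genes made up 11.1% and 13.0% of it. These shares moved with the line, and their part in the results was not tested. The luminal epithelial identity of the lines was checked on 8 markers, whose summed level was 526 FPKM (fragments per kilobase of gene scaled to the library total, as deposited) in LNCaP and 438 in LNCaP-abl. Of the 8, 1 fell past 2-fold and 7 did not pass it, among them FOXA1, HOXB13, KRT8, KRT18, EPCAM and FOLH1. Markers of basal cells, fibroblasts, endothelium and leukocytes summed to at most 3.46 FPKM per list in LNCaP and 3.28 in LNCaP-abl. Of the leukocyte markers, 2 held at least 50 counts over both libraries. CD68 went from 13 to 41 counts and PTPRC from 27 to 29, and neither had its whole interval past 2-fold.

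After scaling by the median ratio over 9889 genes, a gene was counted as higher or lower only where its whole interval lay beyond 2-fold. In LNCaP-abl 693 genes were higher (5.59%) and 572 lower (4.62%), so 10.2% of the genes compared lay past 2-fold. The changes were often large. The median size was 1.94 on the log2 scale among the higher genes and 1.97 among the lower, and 40 higher and 42 lower genes had their whole interval past 16-fold. Scaling by library total gave 848 higher and 456 lower genes and scaling by TMM factors, which trim extreme genes, gave 965 and 413. These scalings raised every log2 ratio by 0.13 and 0.20.

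**Figure D1:**
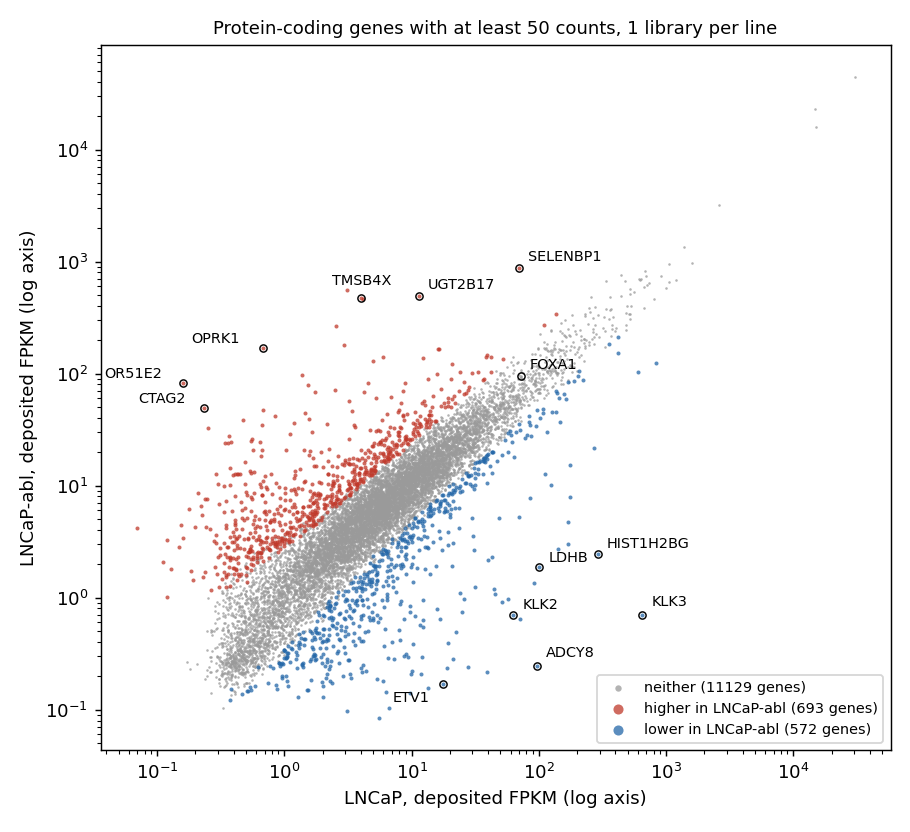
Deposited FPKM of 12394 protein-coding genes in LNCaP (horizontal, log axis) and LNCaP-abl (vertical, log axis), 1 library per line; red points are the 693 genes past 2-fold higher in LNCaP-abl and blue points the 572 lower. KLK3, ADCY8, ETV1 and LDHB lie far below the grey band and OR51E2, OPRK1 and CTAG2 far above it, while FOXA1 lies inside it.

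FOXA1 and HOXB13, pioneer and homeobox factors of prostate epithelium, had log2 ratios of 0.26 and 0.05 and were chosen after their values were seen. Of 29 steroid receptors and coregulators compared, 4 rose (13.8%, against 5.59% of all genes) and 2 fell (6.9%, against 4.62%), and the median log2 ratio was 0.09 against -0.03 over all genes. NR3C1, the glucocorticoid receptor, went from 44 to 753 counts (0.55 to 7.54 FPKM), a 12.4-fold rise (interval 9.17 to 17.3). The coactivators NCOA2 and NCOA3 rose from 749 to 4702 and from 301 to 1632 counts, 4.56-fold and 3.94-fold. GATA2, a further pioneer factor, rose 2.35-fold, from 503 to 1628 counts.

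Most genes that androgen raises were lower. KLK3 (ENSG00000142515, chromosome 19, 56049983 to 56055832 in hg18) had 12512 counts in LNCaP and 17 in LNCaP-abl, or 652.5 and 0.70 FPKM. The level in LNCaP-abl was 1013-fold lower, with an interval of 632 to 1739. KLK2 (chromosome 19, 56068501 to 56075634) went from 1572 counts to 22, 98.4-fold lower (64.7 to 157). These are the genes whose promoters are printed above. Of 54 androgen-induced genes compared, 30 fell (55.6%, against 4.62% of all genes) and 4 rose (7.41%, against 5.59%). The median log2 ratio was -1.45. TMPRSS2, a surface protease, fell from 2060 to 704 counts (4.03-fold). FKBP5, a cochaperone of steroid receptors, fell from 1065 to 307 (4.78-fold). PMEPA1, which dampens TGF-beta signalling, fell from 945 to 24 counts, and AZGP1, a secreted zinc-binding glycoprotein, from 651 to 7.

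The fall was not uniform. PLA2G2A, a secreted phospholipase, had 12 counts in LNCaP and 759 in LNCaP-abl, 46.0-fold higher. ACPP, prostatic acid phosphatase, rose from 155 to 3122 counts (14.6-fold), ADAMTS1, a secreted metalloprotease, from 936 to 11708 (9.09-fold), and STEAP2, a metalloreductase, from 4168 to 17483 (3.05-fold). These 4 are the members that rose, although the list holds genes that androgen raises. ACPP and KLK3, the classical secreted enzymes of the gland, thus moved in opposite directions. Among 18 prostate secretory proteins, a list that overlaps the former one, 9 fell (50%) and 2 rose (11.1%). Over all genes 4.62% fell and 5.59% rose. The median of the secretory list was -2.66. SLC43A1, an amino acid transporter, went from 577 to 9 counts and SPON2, an extracellular matrix protein, from 2366 to 71. SLC30A4, a zinc transporter, was the second member to rise, from 1743 to 5896 counts.

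**Figure D2:**
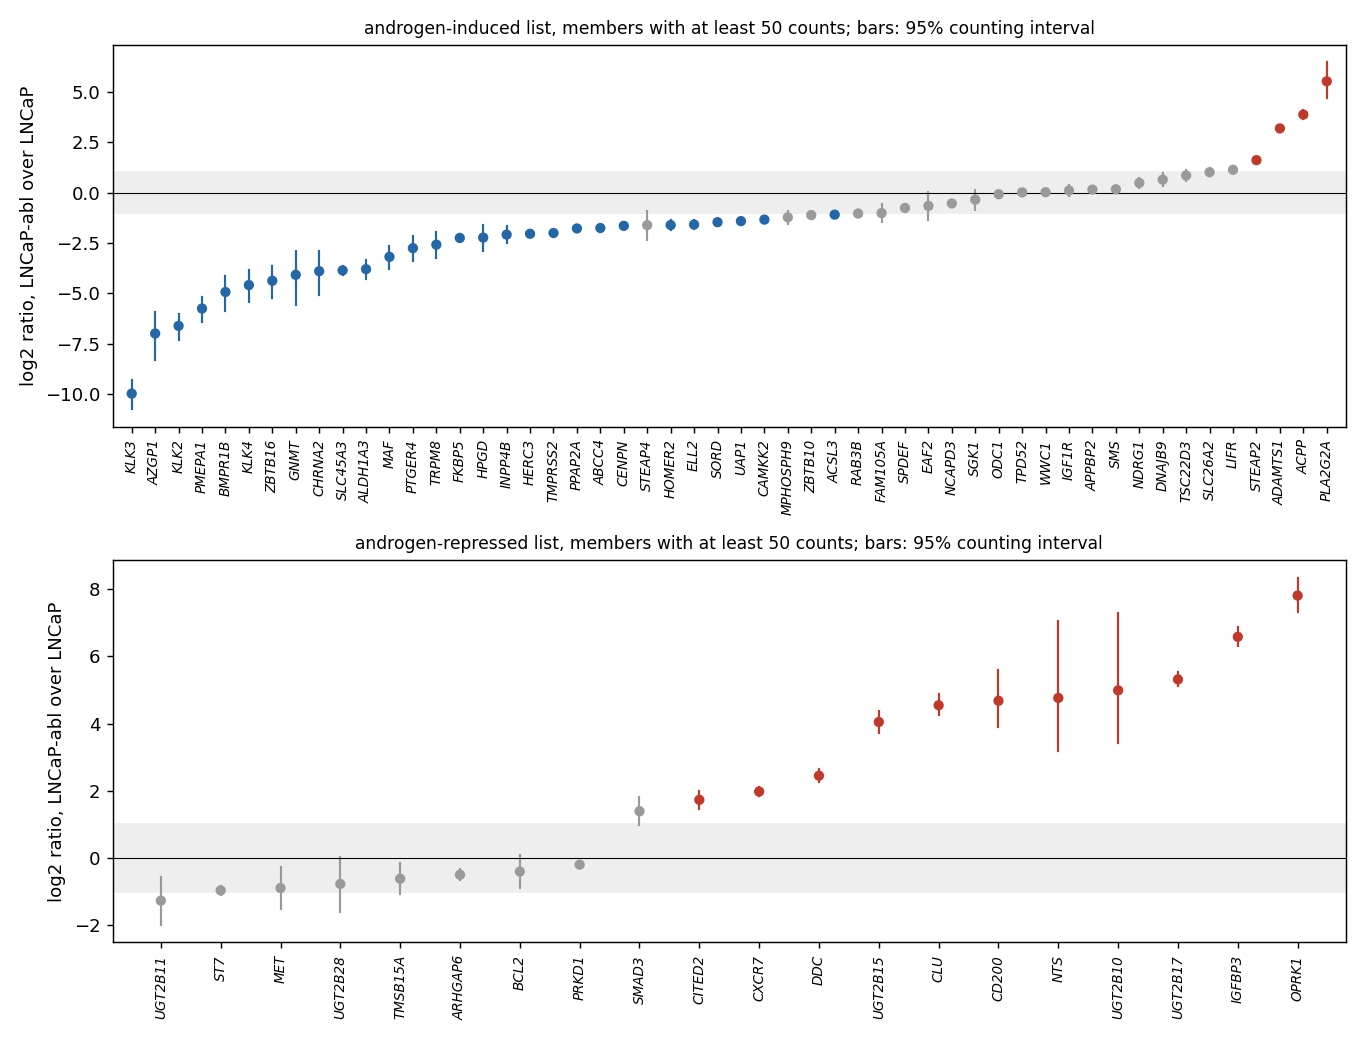
Log2 ratio of LNCaP-abl over LNCaP (vertical axis) for androgen-induced genes (top) and androgen-repressed genes (bottom) with at least 50 counts, with 95% counting intervals; red and blue mark genes past 2-fold higher and lower, and the grey band spans 2-fold either way. Of the members drawn (not every one is), 28 are blue and 4 red in the top panel, and 11 are red and 0 blue in the bottom panel.

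Of 21 androgen-repressed genes compared, 11 rose (52.4%, against 5.59% of all genes) and 0 fell, with a median log2 ratio of 1.73. OPRK1, the kappa opioid receptor (ENSG00000082556, chromosome 8, 54300837 to 54326810), had 34 counts in LNCaP and 10496 in LNCaP-abl, 0.69 and 168.2 FPKM. That is a 224-fold rise (160 to 324). IGFBP3, a binding protein of insulin-like growth factors, rose from 101 to 13310 counts, 95.8-fold (78.7 to 118). CLU, the secreted chaperone clusterin, rose from 89 to 2860 counts (23.4-fold). The other 10 members did not pass 2-fold. Their ratios lay on both sides of 1, and 6 of the 21 members had an interval wholly below 1.

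Within this group 3 UDP-glucuronosyltransferases rose. UGT2B17 (chromosome 4, 69085497 to 69116840) had 205 counts in LNCaP and 11222 in LNCaP-abl, 11.4 and 496 FPKM, a 39.8-fold rise (34.6 to 45.9). UGT2B15 rose from 82 to 1866 counts and UGT2B10 from 3 to 131, 16.5-fold (13.2 to 20.9) and 31.7-fold (10.6 to 156). UGT2B15 and UGT2B17 are near copies whose reads can be counted for each other. Their summed count went from 287 to 13088, a log2 ratio of 5.05 (4.88 to 5.22). UGT2B11 and UGT2B28, chosen after their values were seen, had log2 ratios of -1.27 and -0.77 on at most 49 counts and did not pass 2-fold. The list of these enzymes and their cofactor genes had 3 of 8 members higher (37.5%, against 5.59% of all genes) and 0 lower. The 3 take in the near copies UGT2B15 and UGT2B17. Both other scalings gave 5 of 8 higher. Of 12 steroid synthesis genes compared, SULT2B1, a steroid sulfotransferase, was the 1 that rose (22 to 106 counts), 8.33% against 5.59% of all genes. The median of that list was -0.07, and it turned positive, 0.06 and 0.13, with total and TMM scaling.

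The largest rises also took in genes that are on neither androgen list. OR51E2, an olfactory receptor known as the prostate-specific G protein-coupled receptor (ENSG00000167332, chromosome 11, 4657977 to 4675660), had 4 counts in LNCaP and 2564 in LNCaP-abl, 0.16 and 82.0 FPKM. Its ratio of 466 has a wide interval (182 to 1711) because of the 4 counts. TMSB4X, thymosin beta 4, which holds actin monomers, rose from 59 to 8817 counts. Its near copy TMSL3 rose from 17 to 3831, and reads of one can be assigned to the other. The sum of both went from 76 to 12648, a log2 ratio of 6.92 (6.59 to 7.26). By level, TMSL3, UGT2B17 and TMSB4X reached 475 to 560 FPKM in LNCaP-abl from at most 11.4 in LNCaP.

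Other leading rises were in signalling genes at lower levels. The exchange factors VAV3 and PREX1, which activate small GTPases, rose from 43 to 3785 and from 21 to 1856 counts, each about 64-fold. The secreted ligands SHH, of the hedgehog pathway, and NDP, norrin, rose from 16 to 1520 and from 4 to 649 counts. SERPINI1, neuroserpin, went from 29 to 2562 counts and AMOTL1, a junction-associated angiomotin, from 33 to 2697. PMP22, a myelin membrane protein also made by epithelia, rose from 11 to 1117 counts. CTAG2, a cancer-testis antigen, had 2 counts in LNCaP and 531 in LNCaP-abl, a ratio of 193 with an interval of 53.1 to 1597. PCDH11X, a protocadherin, rose from 67 to 4403 counts, and its near copy PCDH11Y, chosen after its values were seen, from 27 to 1471.

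The leading falls outside the kallikreins were as large. ADCY8, a calcium-stimulated adenylyl cyclase (ENSG00000155897, chromosome 8, 131861729 to 132123854), had 5016 counts in LNCaP and 16 in LNCaP-abl, 97.2 and 0.25 FPKM. It fell 431-fold (265 to 756). ETV1, an ETS transcription factor known to be rearranged in LNCaP, fell from 1492 to 18 counts, 114-fold (71.9 to 193). The ETS genes ETV4, ETV5 and ERG, chosen after their values were seen, had at most 28 counts in either line. DSC2, a desmosomal cadherin, fell from 3374 to 39 counts, 119-fold (86.9 to 168). The synaptic organiser CBLN2 went from 994 to 7 counts, the prostaglandin receptor PTGFR from 546 to 8, the elongation factor EEF1A2 from 2690 to 60 and the collagen COL12A1 from 1279 to 28. ZIM2, an imprinted zinc finger gene, fell from 1942 to 54. LDHB, the lactate dehydrogenase subunit that favours pyruvate formation, fell from 2610 to 61 counts (101 to 1.88 FPKM), 58.9-fold (45.7 to 77.2).

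**Figure D3:**
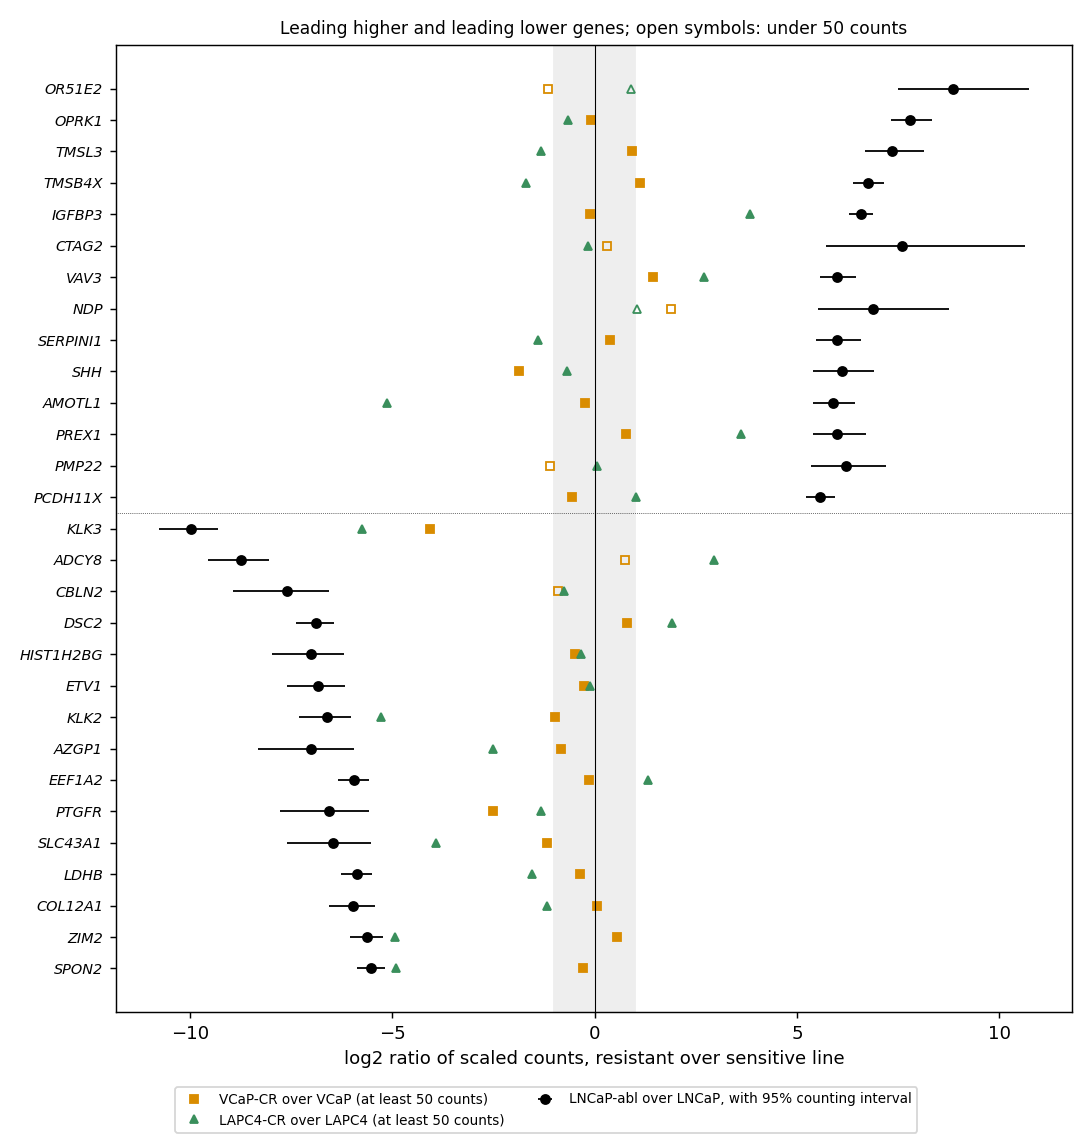
Log2 ratios of leading genes, 14 of the 15 with the highest lower bound and the 15 with the lowest upper bound, in LNCaP-abl over LNCaP (black, with 95% counting intervals), beside the same genes in VCaP-CR over VCaP (orange squares) and LAPC4-CR over LAPC4 (green triangles); the grey band spans 2-fold either way and open symbols have under 50 counts. For KLK3, 3 of 3 pairs lie left of the band, whereas OPRK1 and ETV1 lie inside it in both other pairs.

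Members of the WNT, BMP and receptor kinase lists moved in both directions. WNT5A, a noncanonical WNT ligand, had 105 counts in LNCaP and 5177 in LNCaP-abl, a 35.8-fold rise (29.5 to 43.9), and ROR2, a receptor for it, rose from 17 to 195. LEF1, a nuclear partner of beta-catenin, rose from 47 to 557 counts and RNF43, a ubiquitin ligase that removes WNT receptors, from 78 to 308. TNFRSF19 fell from 427 to 41. In all 6 of 30 WNT genes rose (20%, against 5.59% of all genes) and 1 fell (3.33%, against 4.62%), around a median of 0.06. The BMP target genes ID1, ID2 and ID3, which block helix-loop-helix factors, rose from 53 to 1725, 70 to 360 and 82 to 604 counts. The ligand BMP2 rose from 5 to 133 counts, whereas BMP6 fell from 58 to 7 and the receptor BMPR1B from 290 to 13. The TGF-beta and BMP list had 5 of 30 members higher and 5 lower (16.7% each, against 5.59% and 4.62% of all genes). With TMM scaling it had 10 higher and 4 lower. Of 42 receptor kinase genes and ligands, 6 rose (14.3%, against 5.59% of all genes) and 5 fell (11.9%, against 4.62%). EGF rose from 71 to 944 counts (9.66-fold) while its receptor EGFR fell from 662 to 135 (6.75-fold), and the ephrin receptors EPHA3 and EPHA7 fell from 378 to 21 and from 168 to 26. In the opioid and cyclic AMP list OPRK1 and PDE4D, a phosphodiesterase, rose and ADCY8 and GNAI1, an inhibitory G protein subunit, fell, and the other 24 of 28 members did not pass 2-fold, so that the share was 7.14% in each direction, near that of all genes.

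Adhesion and cytoskeletal lists held members that rose beside members that fell. Apart from the thymosins, IQGAP1, which scaffolds actin, rose 3.21-fold (647 to 2854 counts). MSN and MARCKS, which tether actin to the membrane, fell from 331 to 6 and from 773 to 90 counts. Of 43 actin regulators, 6 rose (14.0%, against 5.59% of all genes) and 3 fell (6.98%, against 4.62%). The 6 take in the near copies TMSB4X and TMSL3, whose reads can be assigned to each other. Among 54 integrin and matrix genes 6 rose (11.1%, against 5.59% of all genes) and 9 fell (16.7%, against 4.62%). TNC, tenascin C, rose from 17 to 517 counts and the surface proteoglycan SDC4 from 176 to 1297, while LAMB2, a laminin chain, fell from 688 to 43 and FKBP10, a collagen chaperone, from 1645 to 56. In the epithelial-mesenchymal list the epithelial genes OVOL1, OCLN and GRHL1 rose (19 to 189, 379 to 2216 and 101 to 353 counts). TWIST1, a mesenchymal transcription factor, fell from 217 to 12 counts, LOX from 105 to 25 and FN1 from 827 to 399. The epithelial tight junction gene CLDN3 fell as well, from 176 to 11. Neural adhesion genes had 8 of 38 members higher (21.1%, against 5.59% of all genes) and 7 lower (18.4%, against 4.62%). DOCK10, an exchange factor, rose from 47 to 1988 counts and NCAM2, an adhesion molecule, fell from 3674 to 492.

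Metabolic lists held a few large changes in a background near 0. SELENBP1, a selenium-binding protein, had 2115 counts in LNCaP and 33270 in LNCaP-abl, 69.7 and 871.5 FPKM, an 11.4-fold rise (10.9 to 11.9). GCLC and NQO1, enzymes of glutathione synthesis and quinone reduction, rose 6.41-fold and 2.65-fold, and 4 of 30 antioxidant genes rose in all (13.3%, against 5.59% of all genes) and 1 fell (3.33%, against 4.62%). Both lactate dehydrogenase subunits fell, since LDHA went from 4529 to 2519 counts (2.48-fold). The glycolytic kinases HK2 and PFKP fell from 437 to 121 and from 316 to 77 counts. CA12, a carbonic anhydrase, ENO2, an enolase isoform, and EGLN3, a hypoxia-induced hydroxylase, rose. In all, 3 of 27 glycolysis and hypoxia genes rose (11.1%, against 5.59% of all genes) and 4 fell (14.8%, against 4.62%). The median of this list was -0.07, and it turned to 0.06 and 0.14 with total and TMM scaling. Of 59 respiratory chain subunits 0 passed 2-fold in either direction, and their median of -0.06 also changed sign with scaling (0.07 and 0.14). The subunits with the highest counts, ATP5B and ATP5A1 of ATP synthase, had log2 ratios of 0.06 and -0.52.

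Lipid and amino acid genes followed no common direction. In fatty acid metabolism ACSL4, ELOVL6 and ACSL1 rose and ELOVL7, ELOVL5 and ACSL3 fell, and the other 20 of 26 members did not pass 2-fold. The share was 11.5% in each direction, against 5.59% and 4.62% of all genes. ACSL3 lost its call with total and TMM scaling. Of 25 cholesterol synthesis genes 1 rose and 1 fell (4% each, against 5.59% and 4.62% of all genes). The 1 that rose was LSS, which closes the sterol rings (253 to 951 counts). SLC7A5, the large neutral amino acid transporter, rose from 44 to 1444 counts, a 23.8-fold rise (17.7 to 33.0). In the same list of amino acid and endoplasmic reticulum stress genes PSAT1, an enzyme of serine synthesis, fell from 2750 to 1463. ASNS, asparagine synthetase, and MTHFD2, a mitochondrial folate enzyme, fell 2.24-fold and 2.27-fold and lost their calls with both other scalings.

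Growth-related lists were lower by less than 2-fold for most members. Of 37 G1/S and replication genes 33 had a ratio below 1 and the median was -0.57, but only RFC3, a clamp loader subunit, fell past 2-fold (400 to 199 counts). Of 40 mitotic genes 36 had a ratio below 1, with a median of -0.52. MKI67, HMMR, CCNA2 and MAD2L1 fell past 2-fold (1181 to 714, 1265 to 751, 1039 to 613 and 731 to 423 counts). They are 10% of the list, against 4.62% of all genes. With total or TMM scaling 0 of 40 fell past 2-fold, and the median was -0.39 and -0.32. Of 74 ribosomal proteins 71 had a ratio below 1, with a median of -0.56. Among them 7 fell past 2-fold (9.46%, against 4.62% of all genes), RPS3A furthest (8515 to 3925 counts). With total and TMM scaling 2 and 1 did, and the median was -0.42 and -0.35. Over all genes compared, the interval lay wholly below 1 for 4309 and above it for 4074. For the ribosomal proteins these counts were 70 and 3.

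Of 54 replication-dependent histones compared, 12 fell (22.2%, against 4.62% of all genes) and 0 rose. The median log2 ratio was -0.50, and it was -0.30 with TMM scaling and -0.26 with the trend on gene length removed. Of the 54, 7 had a ratio above 1. HIST1H2BG went from 1120 to 12 counts, 128-fold lower (73.2 to 249), HIST1H3I from 378 to 7, HIST1H2AB from 590 to 14 and HIST1H2AE from 802 to 28. These mRNAs lack poly(A) tails. Their copies are alike in sequence, so the count of a single copy is uncertain. Stress lists gave single large changes. GDF15, a secreted stress cytokine on the p53 and TGF-beta lists, fell from 1813 to 104 counts and BAX, a pore-forming death effector, from 201 to 79. The death receptor FAS rose from 77 to 666. Of 31 interferon genes 0 rose and 4 fell (12.9%, against 4.62% of all genes), while the median of the list was 0.42. The 4 falls took in IFITM2 (44 to 8 counts) and ISG15 (194 to 100). With total or TMM scaling 1 of these falls was left.

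Of 17 cancer-testis genes compared 6 rose (35.3%, against 5.59% of all genes) and 1 fell (5.88%, against 4.62%). PAGE1 and MAGEA4 rose from 17 to 1316 and from 67 to 2414 counts, beside CTAG2, and MAGEA1 from 70 to 578. TEX15, a meiotic gene, fell from 4322 to 293. NXF2 and NXF2B are near copies and together rose from 72 to 598 counts, a log2 ratio of 2.59 (2.24 to 2.97). Of 10 neuroendocrine genes compared, of 30 listed, NTS (3 to 112 counts), DDC (228 to 1714) and ENO2 (147 to 619) rose, and SYT4, a vesicle protein, fell from 320 to 14. Those that rose and fell are 30% and 10% of the 10 compared, against 5.59% and 4.62% of all genes. The other 20 listed had under 50 counts over both libraries. Of 24 genes of the glucocorticoid, thyroid and retinoid response, hormones of the kinds that B27 supplies, 5 fell (20.8%, against 4.62%) and 1 rose (4.17%, against 5.59%). The 1 that rose was NR3C1 itself. ZBTB16, a transcription factor raised by glucocorticoid and androgen, fell from 227 to 15 counts, RARB, a retinoid receptor, from 62 to 12, and CEBPD from 84 to 23.

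**Figure D4:**
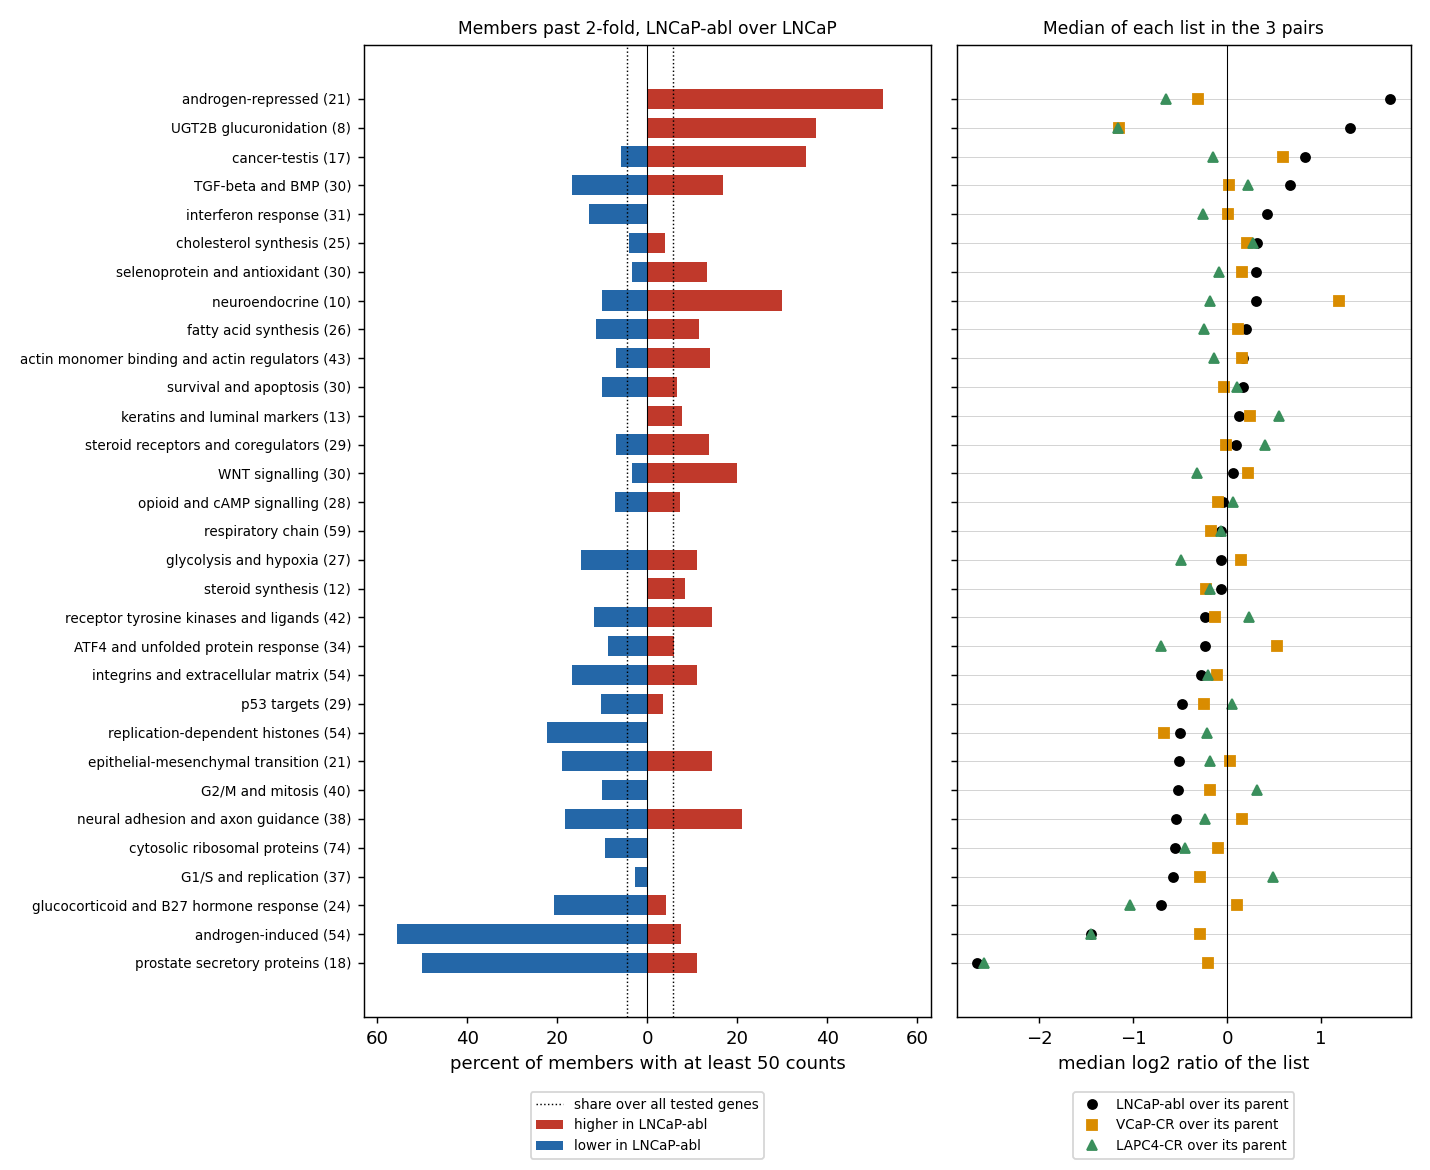
Left, percent of the members of 31 gene lists past 2-fold higher (red) or lower (blue) in LNCaP-abl, with dotted lines at the shares over all genes (5.59% and 4.62%); the number of members with at least 50 counts is in parentheses. Right, median log2 ratio of each list, black for LNCaP-abl over LNCaP, orange for VCaP-CR over VCaP and green for LAPC4-CR over LAPC4; the androgen-repressed list is at 1.73 in LNCaP-abl and below 0 in the other pairs.

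Several changed genes were neighbours. Along each chromosome, 24 runs of at least 3 consecutive compared genes lay past 2-fold in the same direction, 14 higher and 10 lower. The genes in these runs, and the zinc finger and homeobox genes below, were chosen after their values were seen. The longest run was 9 zinc finger genes on chromosome 19 (21697408 to 23225002 in hg18), all lower. Among them ZNF43 fell from 313 to 15 counts, ZNF676 from 106 to 8 and ZNF208 from 171 to 28. The desmosomal cadherins DSC2, DSC1, DSG1 and DSG2, which join epithelial cells, fell with B4GALT6 on chromosome 18 (26899938 to 27518684), DSG2 from 4208 to 479 counts. DSC1 (56 to 7 counts) and DSG1 (42 to 14) had few counts, and DSG1 lost its call with TMM scaling. A kallikrein run held C19orf48, KLK3, KLK2 and KLK4. UGT2B17, UGT2B15 and UGT2B10 formed a run of higher genes on chromosome 4. OR51E2 lay in a run with OR51E1, OR51C1P and OR51F1 on chromosome 11 (4621226 to 4747744), in which OR51F1 rose from 12 to 468 counts. OR51C1P (2 to 77 counts) lies inside the coordinates of OR51E2, so its reads may belong to that gene. OR51E1 (13 to 71 counts) lost its call with log2(FPKM + 1). FTO, IRX3 and IRX5 rose together on chromosome 16, and CD200, ATG3, SLC35A5 and CCDC80 on chromosome 3. The homeobox genes HOXA13, HOXC12 and HOXC13 rose, from 18 to 640, from 15 to 339 and from 50 to 394 counts.

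The share of changed genes differed between chromosomes. On chromosome 18, 27 of 180 genes fell (15%) and 5 rose (2.78%), and the median log2 ratio was -0.48. On the chromosomes other than 18 and 19, 4.26% of genes fell and 5.97% rose. In the VCaP and LAPC4 pairs 1.18% and 5.11% of the genes compared on chromosome 18 were lower. Of the genes named ZNF, which encode zinc finger proteins, 34 of 207 on chromosome 19 fell (16.4%) and 0 rose, with a median of -0.46. Genes named ZNF on other chromosomes had 6 of 220 lower (2.73%), and the other genes of chromosome 19 had 26 of 629 lower (4.13%). In each of the other pairs 3 of the chromosome 19 ZNF genes were lower, of 199 compared in VCaP-CR and 205 in LAPC4-CR. Among 11941 windows of 20 neighbouring genes the lowest median, -1.94, was on chromosome 19 from ZNF431 to ZNF726. The highest, 1.17, was on chromosome 2 from RNF181 to KRCC1, with 8 of 20 genes higher. DNA copy number was not measured here, and its part in these regional values was not tested.

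**Figure D5:**
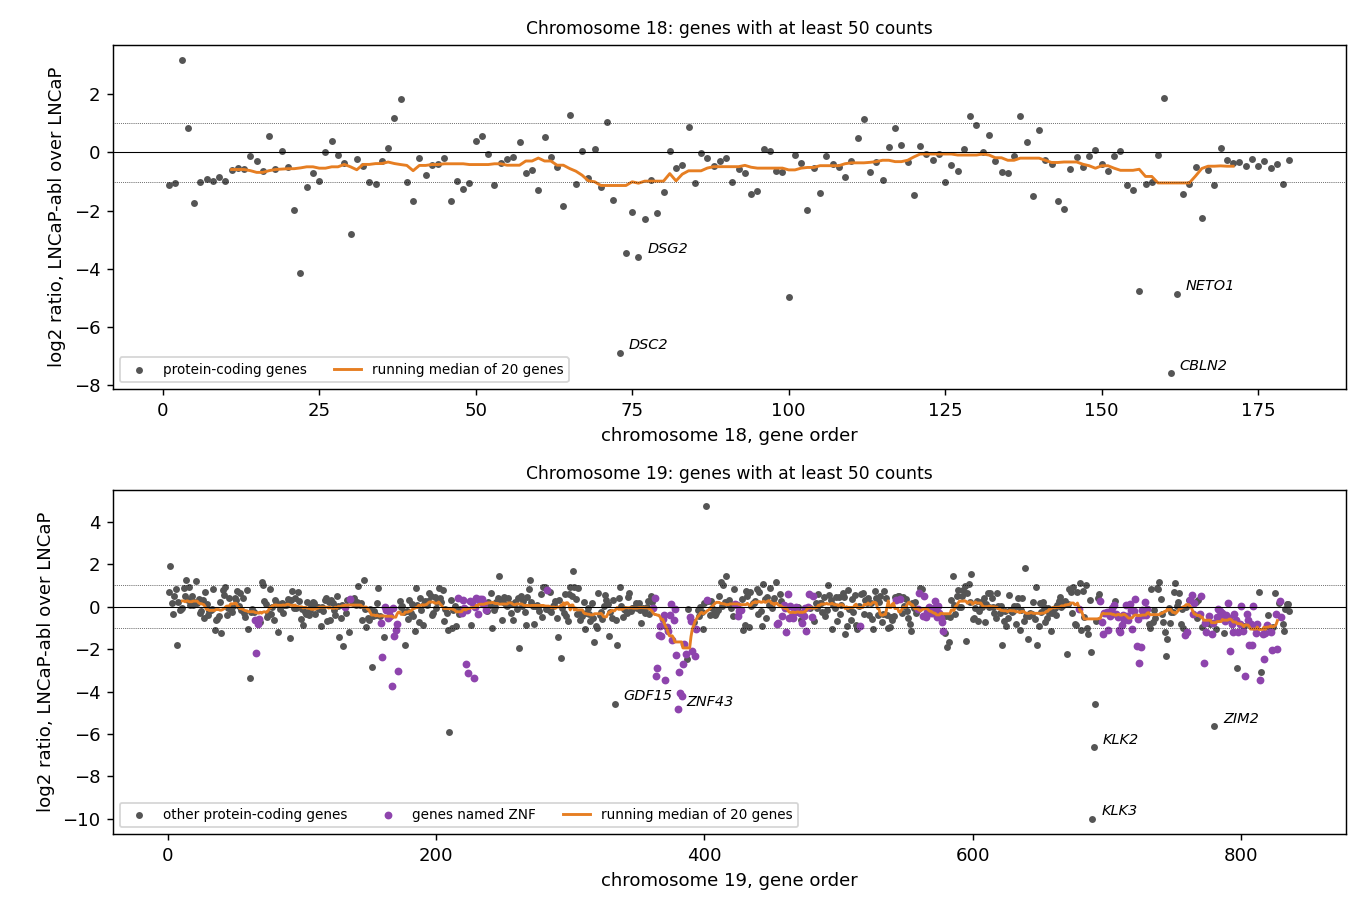
Log2 ratio of LNCaP-abl over LNCaP (vertical axis) for genes in their order along chromosomes 18 (top) and 19 (bottom), with the running median of 20 genes in orange and, on chromosome 19, genes named ZNF in purple. The running median dips to -1.94 in a block of ZNF genes on chromosome 19. DSC2, CBLN2, KLK3 and KLK2 lie far below the running median.

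The same measurement was made in VCaP-CR over VCaP and LAPC4-CR over LAPC4, which share no library with the LNCaP pair. The lines VCaP, grown in DMEM with serum, and LAPC4, grown like LNCaP, are castration sensitive. VCaP-CR and LAPC4-CR are resistant and were grown in the same stripped, B27-supplemented medium as LNCaP-abl. For VCaP, 294 of 12682 genes were higher (2.32%) and 224 lower (1.77%), 4.08% in all. For LAPC4, 810 of 13723 were higher (5.9%) and 721 lower (5.25%), 11.2% in all. Of the 693 genes higher in LNCaP-abl, 36 were also higher and 21 lower in the VCaP pair, among 592 compared there. In the LAPC4 pair 87 were higher and 61 lower, among 626. Of the 572 lower genes, 28 were also lower and 19 higher in the VCaP pair (528 compared), and 108 lower and 32 higher in the LAPC4 pair (546 compared). Called in neither other pair were 511 of the higher and 407 of the lower genes, a count that takes in genes with too few counts to be compared. Only 4.08% and 11.2% of all genes compared in those pairs were called, so most genes of any kind would be counted so. Under 50 counts were 101 of the higher and 44 of the lower genes in VCaP and VCaP-CR, and 67 and 26 in LAPC4 and LAPC4-CR. With 1 library per line these differences between pairs have no test.

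The androgen programme showed both kinds of pattern. The median of the androgen-induced list was -1.45 for LNCaP-abl, with 30 members lower. It was -0.29 with 7 lower in VCaP-CR, and -1.45 with 29 lower in LAPC4-CR. In the same order the androgen-repressed list had medians of 1.73, -0.31 and -0.65, with 11, 3 and 3 members higher and 0, 4 and 5 lower. UGT2B17 had 172 and 77 counts in VCaP and VCaP-CR, and 69 and 59 in LAPC4 and LAPC4-CR. Its level was 496 FPKM in LNCaP-abl and 1.27 to 11.4 FPKM in the other 5 libraries. OPRK1 had at most 179 counts, OR51E2 at most 18 and ETV1 at most 61 in the VCaP and LAPC4 libraries. ADCY8 had 10 to 270 counts there, at most 2.02 FPKM, against 97.2 FPKM in LNCaP. TMSB4X differed, going from 612 to 2167 counts in VCaP-CR and from 4812 to 2873 in LAPC4-CR. For this gene LNCaP was the 1 low library, and the other 5 lay between 31.1 and 475 FPKM.

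Other leading genes were shared in part. Among the 15 leading higher genes, TMSB4X was the 1 also higher in VCaP-CR. In LAPC4-CR 4 were, among them IGFBP3, VAV3 and PREX1. IGFBP3 went from 185 to 5117 counts in LAPC4-CR. Among the 15 leading lower genes 2 were lower in the VCaP pair, KLK3 and PTGFR, and 8 in the LAPC4 pair. The median of the mitotic list stood at -0.52 in LNCaP-abl, -0.19 in VCaP-CR and 0.32 in LAPC4-CR, and that of the replication list at -0.57, -0.29 and 0.49. ID1 rose in LNCaP-abl and LAPC4-CR (59 to 3547 counts in the latter) and had a log2 ratio of -0.57 in the VCaP pair. NR3C1 had log2 ratios of -0.40 and -1.25 in the VCaP and LAPC4 pairs, neither past 2-fold. WNT5A rose in 3 of 3 pairs, from 56 to 353 counts in VCaP-CR and from 527 to 4766 in LAPC4-CR. SELENBP1, at 871.5 FPKM in LNCaP-abl, had 14.6 to 67.2 FPKM in the 4 libraries of the other lines.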

How the data were processed

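Total RNA of each line, purified on RNeasy columns, was made into 1 library with the SOLiD Total RNA-Seq kit, per the labels' protocols. HTSeq and hg18 are named in the submitters' processing notes, without role or version, and coordinates are taken as hg18. Not given in the sources used here are the aligner, the annotation and the use of strand, so near-identical copies and overlapping genes are uncertain. Per the file headers, the authors deposited whole-number counts per gene and FPKM. The deposited FPKM was rebuilt within 1% for 100% of genes from count, gene length and library total. Totals were 8661337 and 10892158 counts.

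From the counts, the ratio of LNCaP-abl to LNCaP was divided by 1.3763, the median over protein-coding genes with at least 50 counts in each library. Intervals are exact (Clopper-Pearson, 95%, scipy 1.17.1) and cover counting error only. A gene was called where the whole interval lay beyond 2-fold. The script was tested on simulated data. TMM factors came from edgeR 4.0.16. With 1 library a side no test was run. The sum filter kept 12394 genes. It dropped 7565. The tables hold 25 protein-coding symbols turned into dates.

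Samples were grouped by the line named in the labels. The members and the 31 lists were chosen with earlier results of these data known. Named genes are the 15 with the highest lower bound and the 15 with the lowest upper bound, up to 4 called members per list and direction, KLK3, KLK2, TMPRSS2 and FKBP5 in any case, and the 2 highest-count members of a list without calls. Alternatives were other scalings, count filters, pseudocounts on FPKM, removal of the trend on gene length, and other call rules. Some genes that the rule names are not reported here.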

Additional observations from a re-analysis of the deposited data

Results flagged for a closer look

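Of 155 named genes, 148 lay past 2-fold in LNCaP-abl over LNCaP, and 25 of these lay past 2-fold in the opposite direction in another pair. The 25 make 26 differences, 9 with the VCaP pair and 17 with the LAPC4 pair. Most of the 155 were named because they were called, so the 148 was largely set by that choice. Opposite calls were not limited to the named genes. Of all 693 higher genes, VCaP-CR had 21 lower among 592 compared, and LAPC4-CR had 61 among 626. Of all 572 lower genes, VCaP-CR had 19 higher among 528 compared, and LAPC4-CR had 32 among 546. With 1 library per line, no difference between pairs was tested. Values below are the log2 ratio of the LNCaP pair minus that of the other pair.

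Among the genes higher in LNCaP-abl and lower in LAPC4-CR, AMOTL1 differed by 11.02, TMSL3 by 8.68, TMSB4X by 8.47 and ADAMTS1 by 7.24. The same direction held for UGT2B15 (5.81), SLC7A5 (5.8), LEF1 (5.56), ENO2 (3.69) and EGLN3 (3.65). Among the genes higher in LNCaP-abl and lower in VCaP-CR, SHH differed by 7.97, UGT2B17 by 7.16, UGT2B10 by 6.99 and ADAMTS1 by 6.46, and ACPP and FAS by 5.32 and 4.22. ADAMTS1 thus rose in LNCaP-abl (936 to 11708 counts) and fell in both other resistant lines (438 to 73 in the VCaP pair and 2315 to 270 in the LAPC4 pair).

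Among the genes lower in LNCaP-abl and higher in LAPC4-CR, ADCY8 differed by -11.7, the desmosomal cadherin DSC2 by -8.82, EEF1A2 by -7.26 and EPHA3 by -7.0. EPHA7 (-5.43), OAS3 (-4.77), SEMA3C (-4.73) and MKI67 (-3.71) were of the same kind. Against the VCaP pair the differences were -7.43 for SYT4, -6.0 for TNFRSF19 and -4.15 for HK2. DSC2 had 3374 and 39 counts in the LNCaP pair, 779 and 2202 in the VCaP pair and 1815 and 13405 in the LAPC4 pair.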

How the results depend on the processing

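Of the 693 higher and 572 lower genes, all 693 and 456 kept their call with total scaling and 693 and 413 with TMM scaling. The counts moved by more than 1.5 times under other settings. They became 1081 and 1071 with log2(FPKM + 0.1) and 1141 and 1264 where the ratio itself, not the interval, had to pass 2-fold. They became 206 and 167 where the interval had to pass 4-fold, and the lower count became 358 with at least 200 counts. Under every other planned setting they stayed within 1.5 times. The 30 leading genes, chosen for the most extreme interval bounds, kept their call under each setting. Of the 230 called genes with values of their own, 28 lost the call in some setting, 20 of them with total or TMM scaling. Of 1441 single-gene values 0 reversed, but only called genes could be counted as reversed. Scaling shifts of 0.13 and 0.20 cannot turn the sign of a ratio past 2-fold, so this 0 is no measure of stability. Of 434 list counts 51 moved by over 1.5 times. With at least 200 counts the medians changed sign for neural adhesion (-0.54 to 0.98), receptor kinases (-0.23 to 0.44), matrix (-0.28 to 0.06) and the glucocorticoid and B27 list (-0.70 to 0.11). Without a filter they did so for the WNT (-0.30), neuroendocrine (-0.59) and keratin lists (-0.18). The opioid and cyclic AMP median went from -0.04 to 0.09 with total scaling and to 0.16 with TMM. The cause was not tested. No paired analysis was possible because each line has 1 library. Genes with few counts in 1 line, such as OR51E2, CTAG2 and CBLN2, have the widest intervals, and no interval covers variation between cultures.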
